A study of Homo sapiens with 6 samples.

Results

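Blood cells grow, survive and mature under cytokines, and the receptors for those cytokines were followed here in cells of a hematopoietic differentiation. The set held 9 genes, KIT, KITLG, FLT3, EPOR, CSF1R, CSF3R, CSF2RB, IL6ST and IL6R, taken by symbol from the 56595 symbols of the deposited expression table, of which 8 are receptors and 1, KITLG, encodes a ligand. Each symbol had 1 row. Genes were tested where the mean of the 6 libraries reached 0.5 FPKM (sequenced fragments adjusted for transcript length and for the size of the library), which 15875 genes and 8 of the 9 members did, all but FLT3.

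The cells came from H1, a human embryonic stem cell line, and were taken at day 8 of a stepwise hematopoietic differentiation. There were 2 libraries of WT cells and 4 of MSX2_KO cells, in which CRISPR/Cas9 had been aimed at the second exon of MSX2, a homeobox transcription factor. The MSX2_KO libraries were 2 replicates of each of 2 clones, named 1# and 2# here after the table's columns. Both genotypes were cultured with activin A and BMP4 and then with VEGF and bFGF. The labels and methods name no ligand of the receptors of this set among the factors added by day 8. The methods leave the list of cytokines to a figure that was not read here, so their text does not show that none was added. The labels name a CD31+ population for the knockout libraries, and the study's text names it for WT too. Clones of 1 cell line are not independent lines, and whether the replicates were separate differentiations is not stated, so that the p-values measure the spread between these libraries, which may be technical. The sample labels carry the letter F for replicate 1 and S for replicate 2 and do not say what the letters mean.

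Marker genes of the sort were read first. PECAM1, which encodes CD31, stood at 186 to 258 FPKM in the 6 libraries. CDH5, the endothelial cadherin, stood at 423 and 379 FPKM in WT and at 230 to 269 FPKM in MSX2_KO. CLDN5, another endothelial marker, stood at 115 and 96.0 FPKM in WT and at 17.1 to 28.2 FPKM in MSX2_KO. PTPRC, which encodes the pan-leukocyte antigen CD45, stood at 0 to 0.115 FPKM. Genes of blood progenitors were present in the sort. RUNX1 stood at 11.2 and 25.4 FPKM in WT and at 29.1 to 58.8 FPKM in MSX2_KO. SPN, which encodes CD43, stood at 6.19 and 11.3 FPKM in WT and at 14.4 to 17.4 FPKM in MSX2_KO. ITGA2B, which encodes CD41, overlapped, at 26.6 and 38.5 FPKM in WT and at 37.6 to 55.4 FPKM in MSX2_KO. Of hepatic endoderm markers, ALB stood at 0 to 125 FPKM, APOA1 at 10.4 to 79.9 FPKM and APOA2 at 2.33 to 167 FPKM. AFP reached 5.77 FPKM and HNF4A 1.81 FPKM. COL1A1, a mesenchymal marker, stood at 27.7 to 206 FPKM. Which cells these transcripts came from was not tested. MSX2 itself does not check the labels, since its RNA was higher in MSX2_KO, at 5.62 to 31.8 FPKM against 3.64 and 1.44 FPKM in WT. A gene edited in an exon can still be transcribed, and why the level was higher was not tested. The members together summed to 70.8 to 84.4 FPKM per library.

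The receptors of the set belong to 2 families. KIT, FLT3 and CSF1R are receptor tyrosine kinases of class III, which dimerize on their ligand and phosphorylate themselves. EPOR, CSF3R, CSF2RB, IL6ST and IL6R are type I cytokine receptor chains, which have no kinase of their own. The receptors assembled from such chains borrow Janus kinases to activate STAT transcription factors, though not every chain need bind one. In blood formation KIT serves progenitors and mast cells, FLT3 early progenitors, EPOR erythroid cells, CSF1R macrophages and CSF3R granulocytes, while CSF2RB is the shared beta chain of the receptors for GM-CSF, IL-3 and IL-5 and IL6ST (gp130) the shared chain of the IL-6 family.

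The members lie apart in the genome, on 7 chromosomes (GENCODE v29, GRCh38). KIT is at chr4:54657918-54740715 on the plus strand, KITLG at chr12:88492793-88580851 on the minus strand, FLT3 at chr13:28003274-28100592 on the minus strand and EPOR at chr19:11377205-11384342 on the minus strand. CSF1R is at chr5:150053291-150113372 and IL6ST at chr5:55935095-55994993, both on the minus strand of the same chromosome. CSF3R is at chr1:36466043-36483278 on the minus strand, IL6R at chr1:154405193-154469450 on the plus strand, and CSF2RB at chr22:36913628-36940449 on the plus strand.

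The 250 bases before each RefSeq start site (GRCh38.p14) were searched for 4 short motifs on both strands, since GATA and RUNX factors govern blood genes, STAT factors act below these receptors, and MSX2 is the deleted factor. The set had 10 such promoters over 8 members, CSF2RB having no entry. A GATA motif (AGATAA or TGATAA, or the variants AGATAG or TGATAG) was present in 22.3% of all 35116 promoters, a RUNX motif (TGTGGT) in 11.0%, the MSX homeodomain core (TAATTG) in 6.70% and a STAT motif (TTCNNNGAA) in 6.57%. The 4 member promoters that held any of them are shown, 5′ to 3′ on the strand of the gene, with the match in capitals.
EPOR, minus strand, chr19:11384315-11384564, GATA: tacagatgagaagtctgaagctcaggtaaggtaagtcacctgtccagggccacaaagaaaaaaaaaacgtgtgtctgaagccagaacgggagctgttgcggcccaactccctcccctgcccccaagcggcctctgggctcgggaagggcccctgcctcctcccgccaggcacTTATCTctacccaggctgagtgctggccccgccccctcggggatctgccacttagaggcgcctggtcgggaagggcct
CSF1R, minus strand, chr5:150113366-150113615, GATA: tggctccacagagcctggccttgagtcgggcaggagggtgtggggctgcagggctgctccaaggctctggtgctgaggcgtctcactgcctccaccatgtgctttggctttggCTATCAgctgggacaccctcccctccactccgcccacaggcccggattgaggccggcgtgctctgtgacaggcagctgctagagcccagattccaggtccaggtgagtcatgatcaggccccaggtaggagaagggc
CSF1R, internal start, minus strand, chr5:150086555-150086804, RUNX: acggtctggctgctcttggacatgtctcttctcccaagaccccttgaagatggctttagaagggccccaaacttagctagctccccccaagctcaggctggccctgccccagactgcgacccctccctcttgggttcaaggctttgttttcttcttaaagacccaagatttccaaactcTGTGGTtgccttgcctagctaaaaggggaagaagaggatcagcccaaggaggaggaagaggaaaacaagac
CSF3R, minus strand, chr1:36483315-36483564, MSX: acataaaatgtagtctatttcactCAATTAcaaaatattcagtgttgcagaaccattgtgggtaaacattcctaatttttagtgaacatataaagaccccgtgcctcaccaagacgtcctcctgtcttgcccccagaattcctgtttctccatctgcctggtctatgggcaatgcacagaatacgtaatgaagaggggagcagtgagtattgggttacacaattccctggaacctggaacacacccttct
The GATA match of EPOR began 78 bases before the start site and that of CSF1R 137 bases before it. The RUNX match lay 71 bases before the internal CSF1R start, and the MSX core of CSF3R 226 bases before the start. The promoters of KIT, KITLG, FLT3, IL6ST and IL6R and the other CSF3R promoter held none of the 4 motifs in this window. No 2 members shared more than the GATA motif, and a match of a few letters describes the sequence only.

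The levels of the members ran from near 0 to 26.5 FPKM on average. In order of the mean over the 6 libraries stood IL6ST (26.5 FPKM), EPOR (18.6), KITLG (15.2), KIT (7.56), CSF2RB (6.09), CSF3R (1.99), IL6R (1.07), CSF1R (0.808) and FLT3 (0.00638). The ranges of neighbours in this order overlapped except between CSF3R, with a lowest value of 1.34 FPKM, and IL6R, with a highest of 1.28 FPKM, and between CSF1R, with a lowest of 0.491 FPKM, and FLT3.

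MSX2_KO was compared with WT with limma on log2(FPKM + 1), and 0 of the 8 members tested passed an adjusted p of 0.05, with 0 at an unadjusted p under 0.05, where 1.29% of all tested genes were called. The MSX2_KO and WT ranges of 0 of the 8 members stood apart, against 21.3% of all tested genes. The adjusted p-values of the members ran from 0.510 to 0.996. Since libraries with the same replicate number deviated together over all genes, the replicate number was then added to the fit as a block. With the block 1 member, CSF2RB, was called, lower in MSX2_KO, where 9.92% of tested genes were called, 6.15% higher and 3.77% lower. That split depends on the scaling, since values scaled to a common sum gave 849 genes higher and 818 lower in place of 977 and 598. The median difference of the members was -0.09 on the log2 scale, beside 0.01 over all tested genes. MSX2, the targeted gene, was higher in MSX2_KO by 1.99 (limma adjusted p = 0.309 without and 0.0107 with the block). In bulk RNA, fewer cells of a type and less RNA per cell cannot be told apart, which holds for every member.

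**Figure D1:**
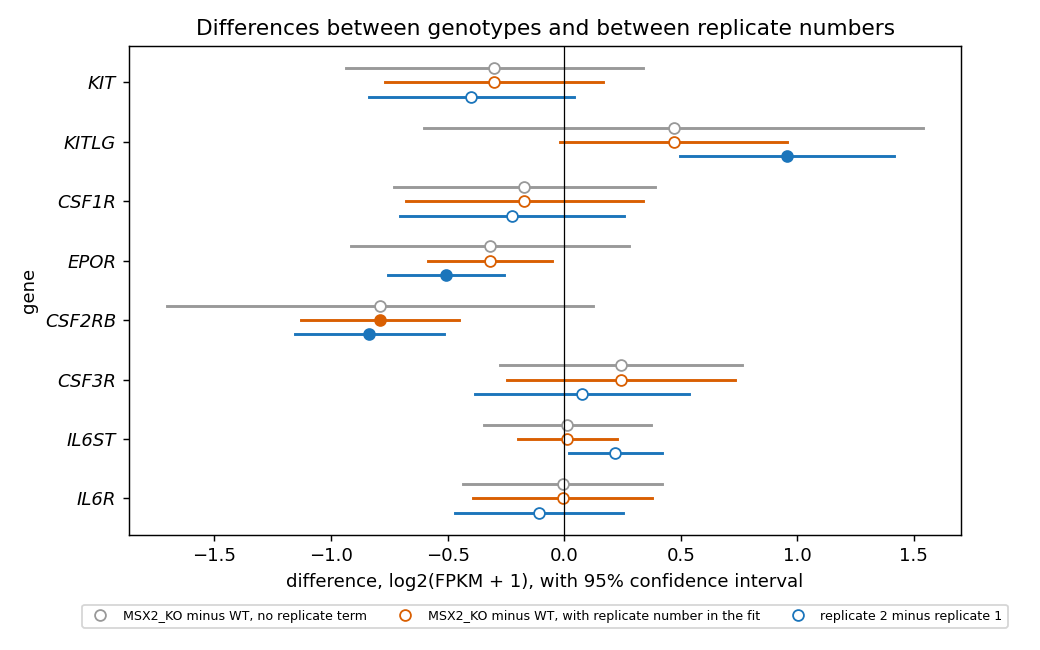
Difference of each tested member in log2(FPKM + 1) with its 95% confidence interval, for MSX2_KO minus WT without and with the replicate number in the fit and for replicate 2 minus replicate 1. Filled points have an adjusted p under 0.05: CSF2RB between genotypes with the replicate number in the fit, and KITLG, EPOR and CSF2RB between replicates.

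CSF2RB was lower in each of the 4 MSX2_KO libraries than in its WT counterpart of equal replicate number. It stood at 10.7 FPKM in WT replicate 1 and 6.65 FPKM in WT replicate 2. Clone 1# had 6.23 and 3.33 FPKM in replicates 1 and 2, and clone 2# had 6.99 and 2.61 FPKM. The groups overlapped, since the replicate 1 value of clone 2# exceeded WT replicate 2, and within a replicate number the MSX2_KO libraries held 39.2% to 65.1% of WT. The difference was -0.79 on the log2 scale, with a 95% interval of -1.70 to 0.12 (limma adjusted p = 0.510) without the block and of -1.13 to -0.45 (limma adjusted p = 0.0214) with it. In the fit of 3 groups with the block, clone 1# differed from WT by -0.76 (limma adjusted p = 0.0969) and clone 2# by -0.82 (limma adjusted p = 0.0786), so that neither clone passed the threshold alone. The blocked call was lost on leaving out any library other than clone 2# replicate 1, that is WT replicate 1 or 2, clone 1# replicate 1 or 2, or clone 2# replicate 2, with differences of -0.95 to -0.63 and limma adjusted p-values of 0.0510 to 0.130. It was also lost without the filter on low values (limma adjusted p = 0.0849).

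CSF2RB binds no cytokine by itself and signals with an alpha chain. The alpha chains for GM-CSF and IL-3, CSF2RA and IL3RA, were listed at 0 in all 6 libraries. Both lie in the pseudoautosomal region of X and Y, and 17 of the 18 protein-coding genes annotated on both chromosomes were listed at 0 in every library, including CD99 and SLC25A6, which most cells express, so the alpha chains were not measured by this table. IL5RA, the alpha chain for IL-5, is not among those genes and stood at 0 to 0.149 FPKM. The pseudogene CSF2RBP1 was listed at 0 throughout. Of 12 macrophage and monocyte markers 10 were tested, of which 3 were higher and 2 lower in MSX2_KO with the block and 0 were called without it. Beside this and the other marker lists, 6.15% of all tested genes were higher and 3.77% lower with the block. Without it 1.29% were called. The summed level of the macrophage and monocyte markers was 98.5 to 108 FPKM in WT and 86.9 to 116 FPKM in MSX2_KO. The granulocyte list had 1 of 8 markers tested and summed to at most 2.81 FPKM, with ELANE, the neutrophil elastase, listed at 0. The part of these cells in the CSF2RB difference was not tested.

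EPOR, the erythropoietin receptor, was the other member that was lower in 4 of 4 comparisons within a replicate number, a pattern held by 2 of the 8 members and by 21.4% of all tested genes. It stood at 27.4 and 16.3 FPKM in WT replicates 1 and 2, at 18.1 and 14.5 FPKM in clone 1#, and at 20.9 and 14.4 FPKM in clone 2#. WT replicate 1 stood highest, the 3 replicate 1 libraries stood above the 3 of replicate 2, and WT replicate 2 lay between the MSX2_KO values. Within a replicate number MSX2_KO held 66.1% to 89.2% of WT. The difference of -0.32 had a 95% interval of -0.92 to 0.28 without the block (limma adjusted p = 0.744) and of -0.58 to -0.05 with it (limma adjusted p = 0.128), and it was 0.04 without WT replicate 1. RGL3, which overlaps EPOR on the same strand, stood at 4.70 to 15.0 FPKM, and reads in the shared stretch could have been split between the genes.

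Markers of erythroid cells, which depend on EPOR, were counted beside it. Of 9 of them 4 were higher in MSX2_KO both with and without the block, 5 were not called and 0 were lower, and their sum was 121 to 141 FPKM in WT and 255 to 605 FPKM in MSX2_KO. The globin genes HBE1 and HBG2, which were not called, were part of these sums, HBE1 with 125 and 164 FPKM in replicate 1 of clones 1# and 2# against 36.5 and 35.9 FPKM in replicate 2, and HBG2 with 124 and 197 FPKM against 42.0 and 39.0 FPKM. GATA1, the erythroid and megakaryocyte transcription factor, stood at 7.68 and 8.90 FPKM in WT and at 17.5 to 20.8 FPKM in MSX2_KO. Whether it acts on the GATA family motif of the EPOR promoter was not tested. EPO, the ligand of EPOR, was at 0 to 0.0766 FPKM and was not tested.

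KIT was highest and its ligand KITLG lowest in WT replicate 1. KIT stood at 12.2 FPKM there and at 5.94 FPKM in WT replicate 2, while clone 1# had 6.57 and 6.23 FPKM and clone 2# 7.76 and 6.62 FPKM. The other 5 libraries thus lay within 5.94 to 7.76 FPKM of KIT. In replicate 1 the clones held 53.8% and 63.6% of the WT level, and in replicate 2 they held 105% and 111%. The difference of -0.30 (95% interval -0.94 to 0.34, limma adjusted p = 0.784) became 0.16 without WT replicate 1. The product of genotype and replicate number, which tests whether the genotype difference itself differed between replicates, was 0.79 for KIT with a 95% interval of 0.24 to 1.34, an unadjusted p of 0.0150 and an adjusted p of 0.371 by limma, and 0 of the 8 members passed that test, where 0.0189% of tested genes did. Mast cells carry KIT as well, and of 6 mast cell markers TPSB2 and CMA1 were listed at 0 in all libraries and 1, HDC, was tested, at 0.788 to 4.57 FPKM. Of 10 hematopoietic progenitor markers 9 were tested, and 6 were higher in MSX2_KO with the block and 1 without it. Their sum was 349 to 514 FPKM in WT and 465 to 693 FPKM in MSX2_KO. Their part in the KIT values was not tested.

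KITLG, also called stem cell factor and made by endothelial and stromal cells, was at 6.24 FPKM in WT replicate 1 and 19.4 FPKM in WT replicate 2. Clone 1# had 10.9 and 21.7 FPKM and clone 2# 13.8 and 19.0 FPKM. All 3 replicate 2 libraries lay above all 3 replicate 1 libraries, and WT replicate 1 was lowest. The MSX2_KO libraries of replicate 1 were at 175% and 221% of WT and those of replicate 2 at 112% and 98.2%. The difference of 0.47 (95% interval -0.60 to 1.54, limma adjusted p = 0.809) turned to -0.28 without WT replicate 1, and with the block the limma adjusted p was 0.200. Its product of genotype and replicate number was -0.81, with an unadjusted p of 0.0265 and an adjusted p of 0.397 by limma. Of 10 mesenchymal and stromal markers 7 were tested, and 2 were higher in MSX2_KO without and 4 with the block. They summed to 277 to 337 FPKM in WT and 499 to 572 FPKM in MSX2_KO. COL1A1, at 27.7 and 55.9 FPKM in WT and 193 to 206 FPKM in MSX2_KO, was part of these sums. COL1A2, at 144 and 148 FPKM in WT and 130 to 156 FPKM in MSX2_KO, and COL3A1 overlapped between genotypes. Of 10 endothelial markers 7 were lower with the block and 3 without it. The part of these markers in the KITLG values was not tested.

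**Figure D2:**
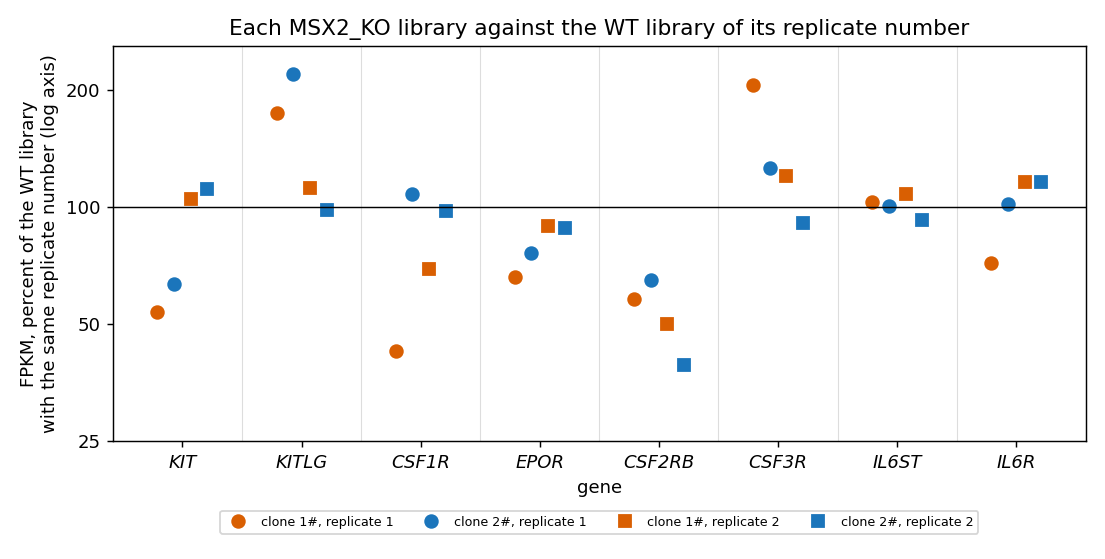
FPKM of each tested member in each MSX2_KO library as a percentage of the WT library with the same replicate number, on a log axis, with the line at 100%. All 4 points lie under the line for EPOR and CSF2RB, and for KIT the replicate 1 points lie under and the replicate 2 points over it.

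The other class III receptors were low. FLT3 was listed at 0 in both WT libraries and both clone 1# libraries, at 0.0262 FPKM in clone 2# replicate 1 and at 0.0121 FPKM in clone 2# replicate 2. Its ligand gene FLT3LG stood at 0.864 to 2.29 FPKM. CSF1R, the receptor of macrophages, was at 1.15 and 0.735 FPKM in WT, at 0.491 and 0.510 FPKM in clone 1# and at 1.24 and 0.718 FPKM in clone 2#. The clones differed from each other by 0.39 (2# minus 1#, 95% interval -0.24 to 1.01), clone 1# being at 42.8% and 69.3% of WT and clone 2# at 108% and 97.6%. The limma adjusted p of clone 1# against WT was 0.917 and that of clone against clone 1. RPL7P1, a pseudogene inside CSF1R on the opposite strand, stood at 3.19 to 7.39 FPKM, above CSF1R itself, and the use of strand in counting is not stated. Of the CSF1R ligands, CSF1 stood at 1.76 to 3.23 FPKM and IL34 at 0 to 0.180 FPKM.

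CSF3R, the receptor for G-CSF, had 1.34 and 1.97 FPKM in WT, 2.76 and 2.37 FPKM in clone 1#, and 1.69 and 1.79 FPKM in clone 2#. Both libraries of clone 1# lay above both of WT, while those of clone 2# lay between them. The difference of clone 1# from WT was 0.43 (95% interval -0.15 to 1.02, limma adjusted p = 0.832) and that of clone 2# 0.06 (95% interval -0.53 to 0.64). Its ligand gene CSF3 was at 0 to 0.170 FPKM. Over the clones taken singly, 0 of the 8 members were called for clone 1# or for clone 2# against WT, where 0.0063% of genes were called in each, and 0 between the clones, where 0% were. These comparisons share the same 2 WT libraries.

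IL6ST, the member with the highest mean, varied little. It stood at 24.1 and 28.5 FPKM in WT, at 24.8 and 30.9 FPKM in clone 1# and at 24.2 and 26.5 FPKM in clone 2#, and the MSX2_KO libraries held 92.8% to 108% of WT within a replicate number. The difference was 0.01 on the log2 scale. Its 95% interval was -0.34 to 0.37 without the block (limma adjusted p = 0.992) and -0.20 to 0.23 with it (limma adjusted p = 0.938). A change of IL6ST by 1 log2 unit in either direction lay outside both intervals. Its pseudogene IL6STP1 reached 0.254 FPKM. IL6R, the chain that binds IL-6 before IL6ST joins, stood at 1.26 and 0.892 FPKM in WT, 0.901 and 1.03 FPKM in clone 1# and 1.28 and 1.04 FPKM in clone 2#. Its difference was -0.01, with a 95% interval of -0.43 to 0.42 without the block (limma adjusted p = 0.996) and of -0.39 to 0.38 with it (limma adjusted p = 0.988).

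IL6ST pairs with several chains besides IL6R, and those chains and the ligand genes were counted next. Of 17 ligand genes of the set's receptors and their relatives 6 were tested, of which IL11 was higher in MSX2_KO without and with the block and EBI3 with it, and 0 were lower. IL11, a ligand that signals through IL11RA and IL6ST, stood at 0.119 and 0.371 FPKM in WT and at 1.77 to 2.46 FPKM in MSX2_KO. The groups did not overlap, and the difference was 1.35 (95% interval 0.90 to 1.79, limma adjusted p = 0.0318). CLCF1, a ligand of CNTFR and the ligand gene with the highest mean, was at 6.35 and 5.74 FPKM in WT and 3.78 to 4.59 FPKM in MSX2_KO, which did not pass the test (limma adjusted p = 0.341 without and 0.0859 with the block).

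CNTFR is the chain that binds ciliary neurotrophic factor and joins IL6ST and LIFR. It was at 8.16 and 9.69 FPKM in WT, at 22.3 and 25.1 FPKM in clone 1# and at 23.0 and 24.8 FPKM in clone 2#, so that every MSX2_KO library stood above both WT libraries. The difference was 1.32 (95% interval 1.0 to 1.65, limma adjusted p = 0.0150 without and 0.00119 with the block), and it was the 1 called gene of the 8 tested among 16 partner chains, where 9.92% of all tested genes were called with the block. LIFR, the partner chain with the highest mean, stood at 48.3 and 64.7 FPKM in WT and 39.6 to 53.2 FPKM in MSX2_KO (limma adjusted p = 0.0980 with the block). IL11RA stood at 34.4 and 30.3 FPKM in WT and 35.9 to 41.8 FPKM in MSX2_KO (limma adjusted p = 0.0639 with the block). Without the block the call of CNTFR was lost on leaving out any library but WT replicate 2 or clone 2# replicate 1 (limma adjusted p 0.0423 to 0.0922 over the 6), and that of IL11 on leaving out any of the 6 libraries (0.0641 to 0.195). With the block CNTFR and IL11 kept theirs in 6 of 6. EBI3, which pairs with IL27 or with an IL-12 chain, was at 1.20 and 1.34 FPKM in WT and 1.88 to 4.34 FPKM in MSX2_KO (limma adjusted p = 0.318 without and 0.0437 with the block), and with the block its call was kept only without WT replicate 1 or clone 2# replicate 1 (0.0478 to 0.198 over the 6).

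**Figure D3:**
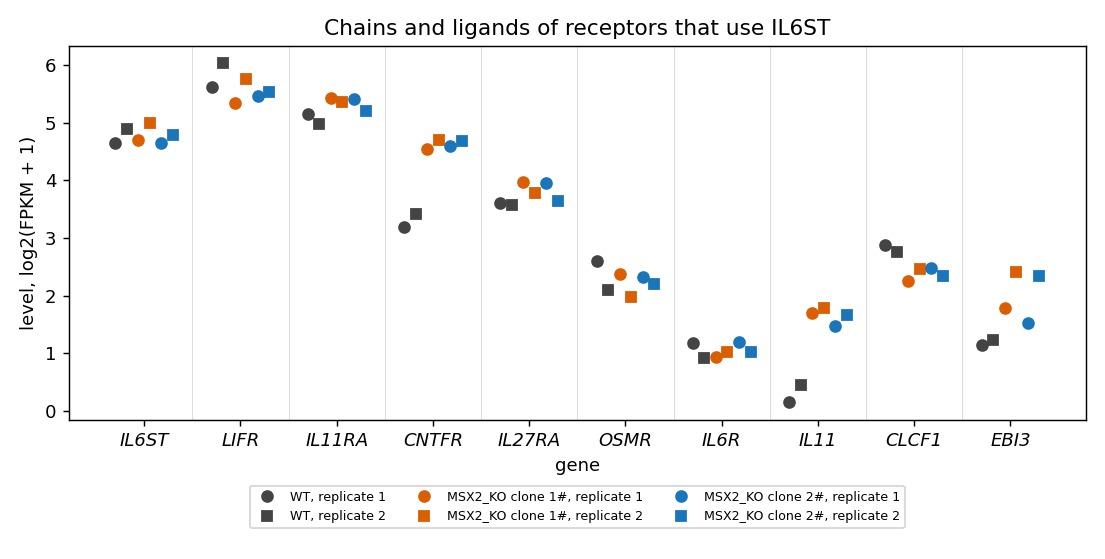
Level, as log2(FPKM + 1), of IL6ST, of 6 chains of receptors of its family and of 3 ligand genes in each of the 6 libraries. CNTFR, IL11RA, IL27RA, IL11 and EBI3 are higher in all 4 MSX2_KO libraries than in both WT libraries, and CLCF1 is lower. IL6ST, LIFR, OSMR and IL6R overlap between the groups. Over all tested genes the groups stood apart for 21.3%.

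Below and beside the receptors, 8 lists of 121 pathway genes were counted, of which 100 were tested. Without the block 2 were higher in MSX2_KO, the IL11 and CNTFR of the preceding paragraphs, and 0 lower, where 1.29% of all tested genes were called. With the block 16 were higher and 7 lower, where 6.15% of all tested genes were higher and 3.77% lower. The median difference was 0.07 over the 100 tested, beside 0.01 over all tested genes. With values scaled to a common sum, 12 were higher and 11 lower. The lists were chosen for the receptors and are described by their counts beside the shares of all genes given above.

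Among 5 further receptor tyrosine kinases of classes III and V, PDGFRB, a mesenchymal receptor, was higher with the block, at 0.948 and 2.10 FPKM in WT and 4.45 to 6.46 FPKM in MSX2_KO (limma adjusted p = 0.0173). KDR, the VEGF receptor of endothelium and the highest of the list, was lower with it, at 666 and 779 FPKM in WT and 434 to 590 FPKM in MSX2_KO (limma adjusted p = 0.0112). On leaving out a library from the fit with the block, the call of PDGFRB was lost without WT replicate 1 or clone 2# replicate 2 (limma adjusted p up to 0.111) and that of KDR without either WT library (up to 0.0915). Of 11 JAK and STAT genes 10 were tested and 2 were called, both lower with the block. STAT6, which serves IL-4, stood at 75.3 and 41.3 FPKM in WT and 28.3 to 47.9 FPKM in MSX2_KO, and STAT2, which serves type I interferon, at 35.2 and 24.8 FPKM in WT and 18.2 to 27.5 FPKM in MSX2_KO. The call of STAT2 was lost on leaving out any of the 6 libraries (limma adjusted p 0.0504 to 0.180) and that of STAT6 without WT replicate 1 or clone 2# replicate 2 (up to 0.0992). TYK2 led the list with 81.8 and 84.3 FPKM in WT and 61.5 to 76.4 FPKM in MSX2_KO (limma adjusted p = 0.0841 with the block). STAT5A, a main effector of EPOR and CSF2RB, was not called, at 36.9 and 39.8 FPKM in WT and 33.4 to 41.1 FPKM in MSX2_KO.

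Of 24 negative regulators 2 were higher with the block and 0 lower. They were PTPN6, a phosphatase that docks on EPOR and KIT, at 11.8 and 28.3 FPKM in WT and 27.3 to 37.9 FPKM in MSX2_KO, and CBLB, a ubiquitin ligase, at 14.4 and 19.8 FPKM in WT and 20.1 to 32.7 FPKM in MSX2_KO. The call of PTPN6 was kept only without WT replicate 2 (limma adjusted p = 0.0137), with differences of 0.37 to 1.16 over the 6 libraries left out in turn, and that of CBLB was lost without WT replicate 2 (0.0628). GRB10, the highest of the list, had a limma adjusted p of 0.144 with the block. Of 29 adaptors and kinases 28 were tested, and PIK3CB, LYN and SRC were higher and MAPK3 lower with the block. LYN, a Src family kinase that associates with KIT and EPOR, stood at 18.0 and 32.4 FPKM in WT and at 23.8 to 51.5 FPKM in MSX2_KO, the highest 2 being the MSX2_KO libraries of replicate 2. The call of SRC was lost on leaving out any of the 6 libraries (limma adjusted p 0.0703 to 0.141), those of LYN (up to 0.0789) and MAPK3 (up to 0.112) without any library but WT replicate 1 or clone 2# replicate 1, and that of PIK3CB without either WT library (up to 0.0561). SHC1, the highest of this list, had a limma adjusted p of 0.128 with the block.

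The 15 STAT target genes held 7 that were higher and 2 that were lower with the block, and 0 that were called without it. BCL2L1 and MCL1, which protect cells from apoptosis, MYC, JUNB, CCND1 and CCND3, which serve growth and the cell cycle, and SGK1, a kinase, were higher. MYC stood at 17.8 and 42.4 FPKM in WT replicates 1 and 2, at 39.7 and 104 FPKM in clone 1# and at 39.0 and 116 FPKM in clone 2#. PIM3, a survival kinase, and CEBPD, a myeloid transcription factor, were lower, PIM3 at 137 and 151 FPKM in WT and 74.0 to 105 FPKM in MSX2_KO. On leaving out a library, MYC, SGK1, CCND3 and BCL2L1 kept their calls in 6 of 6, while MCL1 (limma adjusted p 0.0746 to 0.178) and CEBPD (0.0738 to 0.196) kept theirs in 0 of 6. The call of JUNB was lost without WT replicate 1, clone 1# replicate 2 or clone 2# replicate 1 (up to 0.119), that of CCND1 without either WT library (up to 0.103) and that of PIM3 without WT replicate 1 (0.0664). ID1, the highest of the list, had a limma adjusted p of 0.629 with the block. Of 4 genes of receptor processing MMP9, a protease that releases soluble KITLG, was lower with the block, at 29.5 and 29.4 FPKM in WT and 10.1 to 16.6 FPKM in MSX2_KO (limma adjusted p = 0.0637 without and 0.00758 with the block, and 0.0547 with it and without WT replicate 2), and ADAM10, the highest, was not called.

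Replicate numbers were compared next, since they separated several members. Replicate 2 differed from replicate 1, with genotype in the fit, for 3 of the 8 members, where 34.6% of all tested genes differed, 15.7% higher and 18.9% lower in replicate 2. KITLG was higher by 0.96 (95% interval 0.50 to 1.42, limma adjusted p = 0.0125), EPOR lower by a log2 difference of -0.51 (95% interval -0.76 to -0.26, limma adjusted p = 0.0133) and CSF2RB by -0.84 (95% interval -1.15 to -0.52, limma adjusted p = 0.00602). Replicate 2 lay on the same side of replicate 1 in WT and in both clones for 5 of the 8 members and for 62.5% of all tested genes. More of the variance of log2(FPKM + 1) went with replicate number than with genotype for 7 of the 8 members and for 63.6% of all tested genes. CSF3R was the exception, with 27.0% for genotype and 3.08% for replicate number, and in CSF2RB the shares were 42.5% and 53.4%. The call of EPOR was lost without clone 2# replicate 1 (limma adjusted p = 0.0505).

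The genes whose levels ran most like those of a member over the 6 libraries were named by Pearson's r among 9541 or 9542 tested genes whose mean reached 5 FPKM. EPOR ran with PDCD6IP (r = 0.999) and PRND (0.997), CSF2RB with ELFN1 (0.999) and NISCH (0.998), and KITLG with JAK3 (0.997), a Janus kinase, and PTRHD1 (0.994). KIT ran with ATRNL1 (0.995) and DCAF17 (0.990), IL6ST with CTDSPL2 (0.991) and MORN2 (0.989), CSF1R with ZSCAN2 (0.992) and TAOK3 (0.979), IL6R with PPP1R12A (0.986) and BIRC2 (0.984), and CSF3R with AL591846.1 (0.948) and POLDIP3 (0.937). The 6 points share library, depth and replicate number and are given as a description.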

How the data were processed

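RNA-seq of 6 libraries was read from 1 table. The authors deposited FPKM per gene symbol, with no counts. The submitters' processing notes name BWA, Bowtie, RSEM and hg19 and the series text names TopHat and Cufflinks, so the tool behind the values is uncertain, and versions and the use of strand are not given in the sources used here. The growth protocol also mentions HAND1 overexpression, which no label assigns to a library. Read totals are not in the table, and ratios of low values put the depths at 1 to 1.18 of WT replicate 1. Column names give clones 1 and 2, whose match to the labelled clone numbers is not stated, so they stood for the MSX2_KO group. limma 3.58.1 (R 4.3.3, two-sided, mean-variance trend, Benjamini-Hochberg over 15875 genes) was run on log2(FPKM + 1) of genes whose mean reached 0.5 FPKM, which understates changes of low genes. An exact test of 2 against 4 libraries cannot go below p = 0.0667 and was not used. The differences between replicates 1 and 2 correlated across genes (r = 0.509 between WT and clone 1#, 0.540 between WT and clone 2# and 0.638 between the clones). Replicate number was therefore taken to pair the libraries. The fit with it as a block is given where it changes a call, and for some genes where it does not. The fits were run on simulated data with independent errors and an added replicate difference. Such data cannot test whether replicate number pairs the libraries. Members, lists and tests were chosen with earlier results of these data known. Genes named were the members, MSX2, called pathway genes and the highest of each list, the 2 genes most like each member, and markers that lead a list or are listed at 0. Other genes named, such as GATA1, STAT5A, IL11RA and single ligands, were chosen after their values were seen. Symbols matched GENCODE v29 for 54894 of 56595. Some genes of the lists are not reported here and are left out of the counts.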

Additional observations from a re-analysis of the deposited data

Results flagged for a closer look

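KIT was singled out because both MSX2_KO libraries lay under WT in replicate 1 and both over WT in replicate 2. The difference between those effects was 0.79 on the log2 scale (limma adjusted p = 0.371, 2 of 2 clones in each direction). Within a replicate number both clones were set against the same WT library, so their directions are not independent. The share of all tested genes that meet this rule was not counted. ID1, a target gene of BMP signalling and STAT factors, met the same rule, with a difference of effects of 0.21 (limma adjusted p = 0.638). In replicate 1 its clones were barely under WT, at 99.8% and 96.1%, and in replicate 2 at 105% and 122%. PIK3CB, a catalytic subunit of PI3 kinase, stood at 16.1 FPKM in clone 2# replicate 2 and at 16.8 to 16.9 FPKM in the other 3 MSX2_KO libraries. The gap was 0.865 of the range, past Dixon's limit for 4 samples, but the range itself was narrow. TYK2 stood at 76.4 FPKM in clone 2# replicate 1 and at 61.5 to 63.6 FPKM in the other 3, a gap of 0.855 of the range. These 2 were flagged among 39 genes, and chance flags about 1 in 20 groups.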

How the results depend on the processing

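Without the replicate block MSX2_KO against WT gave 204 called genes, and each of the 204 was among the 1575 called with it, of which 23 were pathway genes and 1 a member (CSF2RB). Calls fell to 127 genes and 1 pathway gene without the filter, to 6 and 0 in 3 groups, to 0 and 0 with clone 1# alone and to 1 and 0 with clone 2# alone. Leaving out a library gave 19 to 82 genes and 0 to 2 pathway genes. With the block, calls were 510 genes, 8 pathway genes and 0 members without the filter, 1008 genes in 3 groups, 639, 10 and 0 with clone 1# alone, 352, 5 and 0 with clone 2# alone, and 706 to 1001, 12 to 18 and 0 to 1 on leaving out a library. Clone 1# against WT gave 550 genes with the block and 0 without the filter or with a pseudocount of 0.1, clone 2# gave 596, 0 and 4, and the clones differed in 1 gene at that pseudocount. Replicate 2 against replicate 1 gave 3111 genes and 1 member without the genotype term (EPOR, limma adjusted p = 0.0677, and CSF2RB, 0.113, were lost), 3608 genes without the filter (KITLG lost, 0.0618) and 3161 to 4801 on leaving out a library, with 2 or 3 members. The product of genotype and replicate number gave 0 genes at a pseudocount of 0.1 and 677 without the filter.

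Direction turned for several genes. IL6ST went to -0.045 on scaling to a common sum and -0.048 with clone 2# alone, where CSF1R went to 0.024 and IL6R to 0.062, and none of these passed the test. On leaving out a library without the block, KIT ranged from -0.76 to 0.16, KITLG from -0.28 to 1.22, EPOR from -0.68 to 0.040, IL6ST from -0.10 to 0.13, IL6R from -0.13 to 0.12, MCL1 from -0.077 to 0.70, CCND1 from -0.059 to 1.42, GRB10 from -0.11 to 0.99 and ID1 from -0.38 to 0.52. With the block KIT ranged from -0.70 to 0.097, IL6ST from -0.029 to 0.062, IL6R from -0.12 to 0.11 and ID1 from -0.030 to 0.18, and CSF3R between replicates from -0.054 to 0.25. The cause of these changes was not tested. The block changed no other call of a member. With 2 WT libraries the intervals are wide, and the depth behind low values such as FLT3 is unknown. Alternatives with the block, and libraries left out between replicates, were chosen after seeing the data.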
